A study of Homo sapiens with 4 samples.

Results

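Cells make purine and pyrimidine nucleotides from small precursors by de novo synthesis, and 10 genes of this pathway were followed here: PPAT, GART, PAICS, ATIC, IMPDH1, IMPDH2, CAD, DHODH, UMPS and CTPS1. They were matched by gene symbol to the platform annotation of the array, and the list was chosen with earlier results of these data known. Each of the 10 was represented by a single array feature among 17687 genes. Total RNA came from NB4-R4, an acute promyelocytic leukaemia line that resists all-trans retinoic acid (ATRA). Treated cells were given MK-8776, an inhibitor of the replication checkpoint kinase CHK1, at 4 µM for 96 h (2 arrays), and control cells were given the vehicle DMSO for the same time (2 arrays). Both groups thus share a single ATRA-resistant line in culture, and the RNA was taken from live cells, so cells that had died are not in the measurement.

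In the purine branch, the ring of inosine monophosphate is built stepwise on activated ribose (PRPP), and IMPDH1 or IMPDH2 then opens the way to the guanine nucleotides. In the pyrimidine branch, CAD, DHODH and UMPS make uridine monophosphate, and CTPS1 turns uridine triphosphate into cytidine triphosphate. Dividing cells lean on both branches for RNA and DNA, and MYC is known to activate many of these genes in proliferating blood cells.

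The values are RMA expression on the log2 scale, so a difference of 1 is a 2-fold difference. A change is the MK-8776 mean less the DMSO mean, given with its standard error (SE), and a gene was called where its adjusted p in the limma fit across 17687 genes was below 0.05. Across all genes, the correlation was 0.993 between the MK-8776 arrays and 0.993 between the DMSO arrays, and any MK-8776 array correlated with a DMSO array at 0.981 to 0.989. CHEK1, the gene of CHK1, measured 10.08 and 10.33 with MK-8776 and 10.90 and 11.13 with DMSO, a change of -0.81 (adjusted p = 0.0883, limma) that was not called here but was with a variance trend (0.0333). The activity of the kinase is not seen by an array. Of the promyelocyte markers, 5 of 7 were measured, and none had both group means under the lower quartile of all array values (3.97). The granule enzyme gene MPO averaged 15.09 ± 0.39 with MK-8776 and 16.18 ± 0.13 with DMSO (SD, n = 2 each), and was not called (adjusted p = 0.0514, limma). AZU1 had a change of -1.20 with overlapping groups and was not called either (adjusted p = 0.434, limma). The granule protease genes CTSG and PRTN3 fell, with changes of -2.20 and -2.01, and ANPEP, a gene of myeloid cells, rose by 1.08 (adjusted p = 0.00516, 0.0193 and 0.0316, limma). Of markers of other blood cells, 6 of 8 were measured, 2 of which (MS4A1 and HLA-DRA) had both means under that quartile. The B cell gene CD79A (9.61 with MK-8776, 9.69 with DMSO) and the T cell gene CD3E were not dim. CD3E fell by 1.38 (adjusted p = 0.0264, limma). HBB and PF4, genes of red cells and megakaryocytes, had changes of 0.775 and 0.235 that were not called (adjusted p = 0.0934 and 0.646, limma). Against a fold of 1.2, ANPEP and CD3E were not called (adjusted p = 0.0840 and 0.0574, limma). The part of CD3E in the results below was not tested.

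PPAT, which encodes the amidotransferase that commits PRPP to purine synthesis, and DHODH, which encodes the mitochondrial enzyme that oxidises dihydroorotate to orotate, fell after MK-8776. The other 8 genes did not pass the test, and none of the 10 rose. All 10 group means were lower with MK-8776, and the median change was -0.68, against 0.005 over all genes. The 2 calls, both falls, are 2 of 10, against a background of 3.69% of genes called in either direction and 2.02% of genes called as falling. Both MK-8776 arrays lay below both DMSO arrays in 7 of the 10, against 24.2% of all genes. In bulk RNA, fewer cells that make a transcript and less of it per cell cannot be told apart. MYC and 7 of 15 proliferation markers fell in the same arrays (values with the lists), and their part in these changes was not tested.

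**Figure D1:**
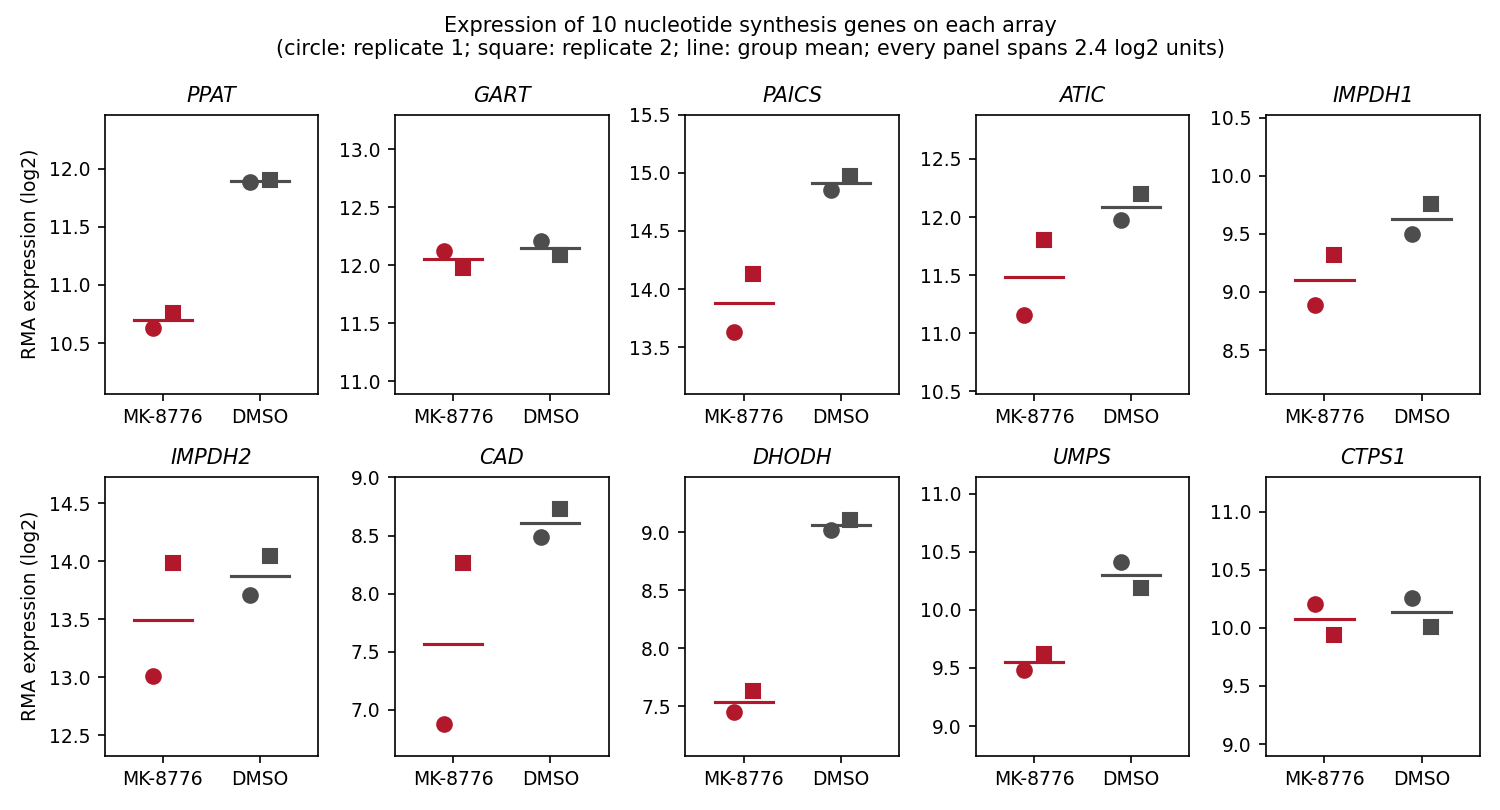
RMA expression (log2, y axis) of each of the 10 genes on the 2 MK-8776 arrays (left, red) and the 2 DMSO arrays (right, grey), with circles for replicate 1, squares for replicate 2 and a line at each group mean. The groups are apart in 7 genes and overlap in GART, IMPDH2 and CTPS1, and the MK-8776 arrays differ most from each other in CAD.

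PPAT and PAICS start next to each other on chromosome 4 and run in opposite directions, so their shared promoter is shown here together with that of DHODH, the gene with the larger fall. PPAT lies at chr4:56393362-56435615 on the minus strand and PAICS at chr4:56410507-56464578 on the plus strand (GRCh38.p14). RefSeq lists several starts for PAICS, and one of them lies 137 bases from the PPAT start, so that their promoter windows share 236 bases. Each window covers 250 bases before to 50 bases after a start (RefSeq, GRCh38.p14). The PPAT window at chr4:56435566-56435865 is given on the minus strand and the DHODH window at chr16:72008494-72008793 on the plus strand, with the E-box letters CACGTG, which MYC and its partner MAX are known to bind, in capitals.
PPAT: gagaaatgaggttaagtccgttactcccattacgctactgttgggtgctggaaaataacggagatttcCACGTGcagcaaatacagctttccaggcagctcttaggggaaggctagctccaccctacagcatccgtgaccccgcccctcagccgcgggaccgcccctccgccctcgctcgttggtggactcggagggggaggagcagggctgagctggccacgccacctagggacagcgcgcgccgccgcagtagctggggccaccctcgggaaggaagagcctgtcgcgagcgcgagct
DHODH: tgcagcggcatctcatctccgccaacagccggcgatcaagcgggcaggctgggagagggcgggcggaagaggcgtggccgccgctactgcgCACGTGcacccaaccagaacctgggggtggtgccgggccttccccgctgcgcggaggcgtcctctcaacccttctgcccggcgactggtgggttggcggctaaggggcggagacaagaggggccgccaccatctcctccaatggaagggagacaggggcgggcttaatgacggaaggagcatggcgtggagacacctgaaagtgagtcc

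The E-box starts 182 bases before the PPAT start and 159 bases before the DHODH start. On either strand, CACGTG was found in at least 1 window of 4 of the 9 genes that have windows (PPAT, PAICS, ATIC and DHODH), against 10.8% of 14250 tested genes with a window. In PAICS this was the same site as in PPAT, in the bases that their windows share, and neither of its other windows held the motif. A single site is thus counted for both genes, and it lies after the PAICS start of that window. GGGCGG, the GC box, was found in 8 of the 9, against 65.4% of those genes, and CCAAT in 3 of the 9, against 42.3%. The 3 motifs were counted apart, so matches may share letters at their ends, and a match in a window of this length is a description of the sequence and no measure of binding. Within these windows CACGTG is thus held by both called genes and by PAICS and ATIC, and bases beyond the windows were not searched. The windows of GART, IMPDH1, CAD, UMPS and CTPS1 held none. The changes of those genes were -0.10, -0.525, -1.04, -0.75 and -0.06 in that order, against -0.605 for ATIC. The part of the motif in the changes was not tested.

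PPAT measured 10.63 and 10.76 with MK-8776, against 11.89 and 11.90 with DMSO (feature TC0400010770.hg.1). The replicates of each group lay close together and the groups were far apart. The change was -1.20 (SE 0.20, 95% interval -1.67 to -0.73, adjusted p = 0.0213, limma), which is 2.30-fold lower. Its divergent neighbour PAICS, whose protein carries out a carboxylation and the step after it in the middle of the purine pathway, measured 13.63 and 14.13 with MK-8776, against 14.85 and 14.97 with DMSO. Both MK-8776 values were below both DMSO values, but the MK-8776 arrays differed from each other by 0.50. The change was -1.03 (SE 0.24, 95% interval -1.57 to -0.49) and just missed the threshold (adjusted p = 0.0556, limma). The annotated spans of PPAT and PAICS share 25109 bases on opposite strands, and whether the array's features tell the strands apart is not given in the sources used here.

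GART encodes the protein that makes several early intermediates of the purine ring (chr21:33503931-33542893). It measured 12.12 and 11.98 with MK-8776 and 12.21 and 12.09 with DMSO. These values overlap, and the change of -0.10 had a 95% interval of -0.57 to 0.37, so a fall as large as the estimate for PPAT lies outside it. ATIC, whose protein closes the ring to give inosine monophosphate (chr2:215312059-215368592), measured 11.16 and 11.80 with MK-8776 and 11.97 and 12.20 with DMSO. The groups did not overlap, and the gap of 0.64 between the MK-8776 arrays was larger than the change of -0.61 (SE 0.26, adjusted p = 0.260, limma). The estimates for the ring-building enzymes thus ran from -1.20 for PPAT to -0.10 for GART, and differences between these genes were not tested.

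IMPDH1 and IMPDH2 encode the isozymes that oxidise inosine monophosphate on the way to guanosine monophosphate. IMPDH1 (chr7:128392277-128409982) measured 8.89 and 9.32 with MK-8776, against 9.50 and 9.76 with DMSO, without overlap. The change was -0.53 (SE 0.24, 95% interval -1.06 to 0.01) and did not pass (adjusted p = 0.277, limma). IMPDH2 (chr3:49024325-49029398) measured 13.01 and 13.98 with MK-8776, against 13.71 and 14.04 with DMSO. The second MK-8776 array lay between the DMSO arrays and the first below both, and the change of -0.38 had a 95% interval of -1.12 to 0.36 (adjusted p = 0.602, limma).

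CAD encodes the protein that joins the opening steps of pyrimidine synthesis in one chain (chr2:27217369-27243943). It measured 6.88 and 8.26 with MK-8776, against 8.49 and 8.73 with DMSO. Both MK-8776 values were lower than both DMSO values, but they were 1.38 apart, the widest gap among the 10 genes. The mean change was -1.04 (SE 0.40, 95% interval -1.95 to -0.13), as large as that of PAICS, and did not pass (adjusted p = 0.207, limma).

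DHODH follows CAD in the pathway and is its mitochondrial step (chr16:72008744-72027659, feature TC1600008328.hg.1). It measured 7.45 and 7.63 with MK-8776, against 9.02 and 9.10 with DMSO. The replicates agreed closely in both groups, and the change of -1.52 (SE 0.21, 95% interval -1.99 to -1.05, adjusted p = 0.00910, limma) was the largest of the 10, 2.87-fold lower. Over the whole array, 124 genes had a more negative change. UMPS, whose protein turns orotate into uridine monophosphate (chr3:124730452-124749273), measured 9.48 and 9.62 with MK-8776, against 10.41 and 10.19 with DMSO. The groups were apart, and the change of -0.75 (SE 0.21, 95% interval -1.23 to -0.27) missed the threshold (adjusted p = 0.10, limma).

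CTPS1 encodes the main cytidine triphosphate synthetase of proliferating lymphocytes (chr1:40979696-41012565). It measured 10.21 and 9.94 with MK-8776, against 10.26 and 10.01 with DMSO, so that the groups overlapped. The change of -0.06 had a 95% interval of -0.56 to 0.44 (adjusted p = 0.927, limma).

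**Figure D2:**
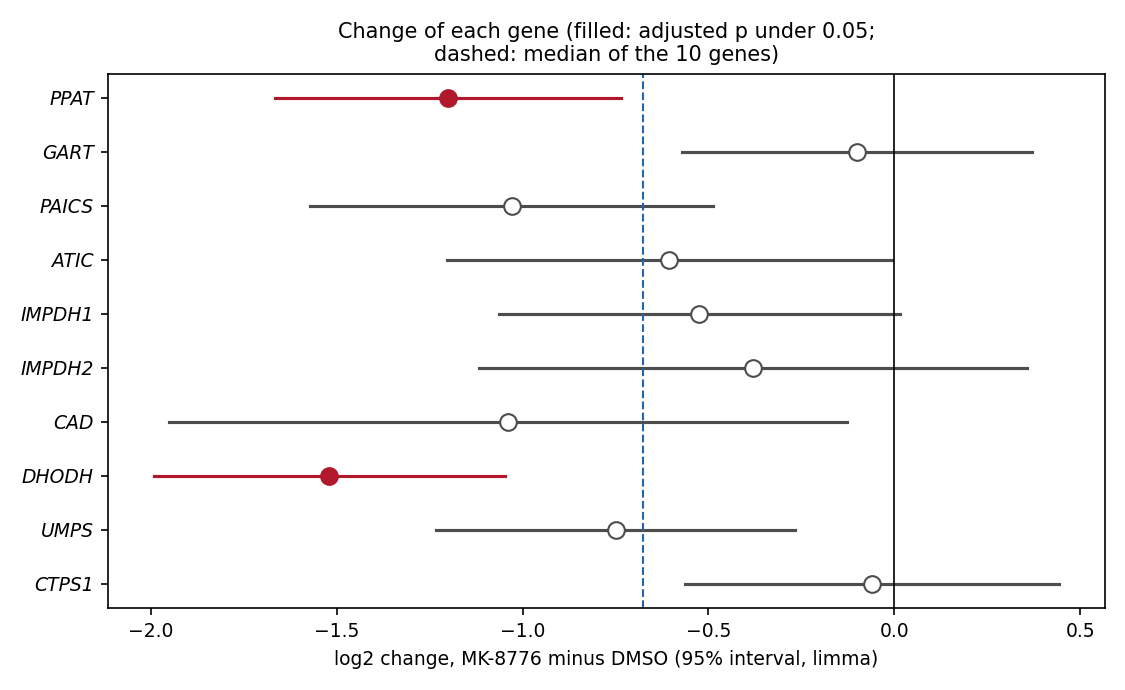
Log2 change, MK-8776 minus DMSO (x axis), of each of the 10 genes with its unadjusted 95% interval from limma. Filled points passed the adjusted threshold (PPAT at -1.20 and DHODH at -1.52), the dashed line is the median of the 10 genes (-0.68), and the intervals of GART, IMPDH1, IMPDH2 and CTPS1 include 0.

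The intervals are those of single genes and are not adjusted for the number of genes tested, so an interval that leaves out 0 is not a call. At an unadjusted p under 0.05, 6 of the 10 were lower (PPAT, PAICS, ATIC, CAD, DHODH and UMPS), against 10.2% of all genes that were lower at that p and 18.8% that differed in either direction. With a variance trend the limma fit called 3 of the 10, adding PAICS (adjusted p = 0.00374), against 6.7% of all genes. Among features above the median level it called the same 3, against 10.3% of the genes in that fit. A test against a fold of 1.2 asks for a larger difference, and it called DHODH alone (PPAT at adjusted p = 0.0505), against 1.63% of all genes.

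The first MK-8776 array was lower than the second in 8 of the 10 genes, against 48.7% of all genes, with GART and CTPS1 as the exceptions. The first DMSO array was lower than the second in 7 of the 10, against 48.8% of all genes, but by less: the median gap over the 10 genes was -0.31 between the MK-8776 arrays and -0.10 between the DMSO arrays. Centred on the mean of each gene, the 10 genes averaged -0.56 and -0.16 on the MK-8776 arrays and 0.33 and 0.39 on the DMSO arrays. Without MK-8776 replicate 1 the median change was -0.33, and CAD was at -0.35, ATIC at -0.29, IMPDH1 at -0.31 and IMPDH2 at 0.11. Without MK-8776 replicate 2 the median was -0.90 and CAD was at -1.73. PPAT ran from -1.27 to -1.14 and DHODH from -1.61 to -1.43 over the 4 arrays left out in turn. A fit with 3 arrays leaves 1 array in a group, so only sizes of change are given here.

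**Figure D3:**
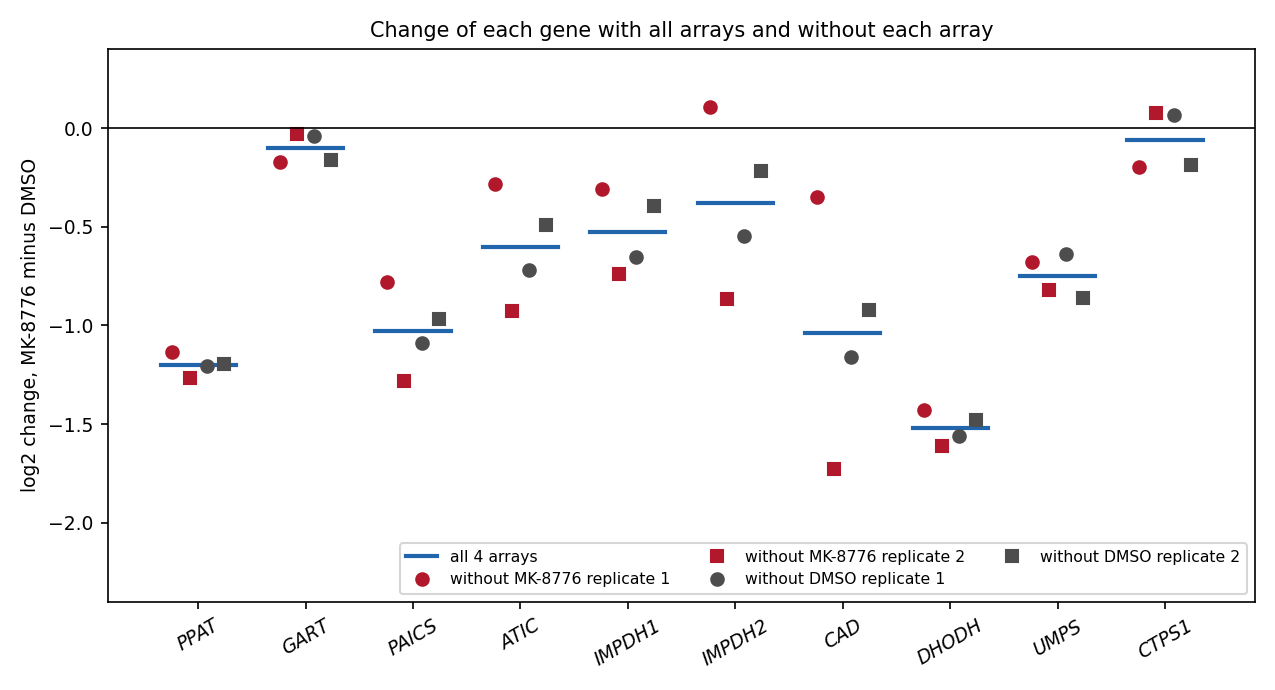
Log2 change, MK-8776 minus DMSO (y axis), of each of the 10 genes with all 4 arrays (blue line) and without each array in turn (red for an MK-8776 array, grey for a DMSO array, circles for replicate 1 and squares for replicate 2). The points of PPAT and DHODH stay together, whereas those of CAD run from -1.73 to -0.35 and those of IMPDH2 from -0.87 to 0.11.

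The enzymes on each side of the pathway were described by lists of other genes. PRPP synthetases and the remaining purine genes had 8 of 9 members measured. Of these 2 fell, 0 rose and 6 did not pass, against 2.02% of all genes called as falling, and the median change was -0.63. PRPS2, which encodes a PRPP synthetase, measured 10.57 and 10.81 with MK-8776, against 11.79 and 11.88 with DMSO, and fell by 1.15 (adjusted p = 0.0272, limma). ADSS1, which encodes an adenylosuccinate synthase best known from muscle, measured 5.81 and 5.43 with MK-8776, against 6.71 and 6.78 with DMSO, and fell by 1.13 (adjusted p = 0.0338, limma). Neither was called against a fold of 1.2 (adjusted p = 0.0674 and 0.0858, limma). The groups did not overlap in 7 of the 8, all lower with MK-8776, against 24.2% of all genes that were lower without overlap. GMPS, PFAS and ADSL, which encode further enzymes of the branch, had changes of -0.88, -0.67 and -0.59.

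CTPS2 and the nucleotide kinases had 9 of 12 measured. AK4, which encodes a mitochondrial adenylate kinase, alone was called, against 3.69% of all genes. It measured 5.73 and 6.15 with MK-8776, against 7.74 and 7.57 with DMSO, and fell by 1.72 (adjusted p = 0.00871, limma). Over the 9 genes the median change was -0.46. Of the genes of deoxynucleotide synthesis, 9 of 10 were measured and 0 were called by limma, although 5 had an unadjusted p under 0.05 (18.8% of all genes) and the median change was -0.71. RRM1, the large subunit of ribonucleotide reductase, measured 12.20 and 12.65 with MK-8776, against 13.28 and 13.49 with DMSO. Its change was -0.96 (adjusted p = 0.0678, limma), which a variance trend turned into a call (0.00844), and TYMS, thymidylate synthase, was at -0.85 (adjusted p = 0.147, limma), or -0.53 without MK-8776 replicate 1.

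Salvage recycles bases and nucleosides that are already made, and breakdown removes them. Of 12 measured salvage genes 0 were called by limma, 4 had an unadjusted p under 0.05 (18.8% of all genes), and the median change was 0.02, with 6 means lower and 6 higher. CDA, cytidine deaminase, measured 6.79 and 7.08 with MK-8776, against 4.51 and 5.93 with DMSO, a change of 1.72 (adjusted p = 0.0621, limma, or 0.0269 under a variance trend). Its DMSO arrays were 1.42 apart. HPRT1, which recycles hypoxanthine and guanine, was at -0.74 (adjusted p = 0.104, limma). Of 18 measured breakdown genes 1 rose and 1 fell, against 3.69% of all genes called in either direction, with a median of -0.25. ADA, adenosine deaminase, measured 5.22 and 6.03 with MK-8776, against 7.18 and 8.03 with DMSO, and fell by 1.98 (adjusted p = 0.0247, limma). SAMHD1, which degrades deoxynucleoside triphosphates, measured 10.96 and 10.88 with MK-8776, against 10.05 and 9.93 with DMSO, and rose by 0.93 (adjusted p = 0.0470, limma). That call was lost when every feature entered the fit (0.0570) and against a fold of 1.2 (0.140). The 7 nucleoside transporter genes had 0 calls by limma, 4 at an unadjusted p under 0.05 (18.8% of all genes) and a median of -0.28. SLC29A2 and SLC29A3 were at -0.80 and -0.78, and at -0.36 and -0.44 without MK-8776 replicate 1.

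Genes that supply formate and ribose went both ways. Among the 10 measured there were 3 falls and 1 rise, against 3.69% of all genes called in either direction, and the median change was -0.26. MTHFD1L, which makes formate in mitochondria, measured 9.65 and 9.95 with MK-8776, against 11.28 and 11.37 with DMSO, and fell by 1.53 (adjusted p = 0.0110, limma). MTHFD1, which loads formate onto folate in the cytosol for the purine ring, fell by 1.31 (adjusted p = 0.0385, limma, and 0.0869 against a fold of 1.2). RPIA, the ribose phosphate isomerase, fell by 1.32 (adjusted p = 0.0403, limma, and 0.0919 against that fold), whereas PGD, an enzyme of the oxidative pentose phosphate pathway, measured 12.33 and 11.70 with MK-8776, against 10.56 and 10.54 with DMSO, and rose by 1.47 (adjusted p = 0.0231, limma).

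**Figure D4:**
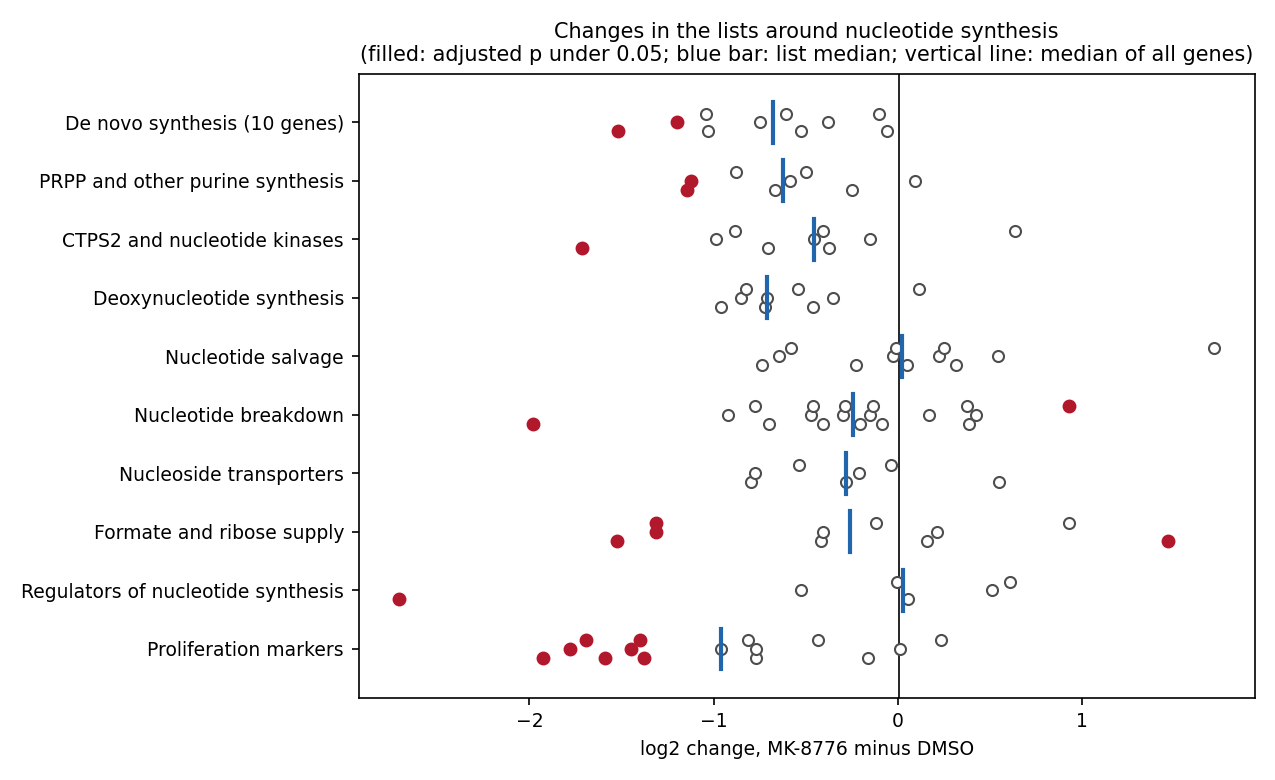
Log2 change, MK-8776 minus DMSO (x axis), of every measured gene in 10 lists (rows), with filled points for genes past the adjusted threshold, blue bars at the list medians and a line at the median of all genes (0.005). The medians of de novo synthesis (-0.68), other purine genes (-0.63) and deoxynucleotide synthesis (-0.71) lie below that of salvage (0.02), and the lists were not tested against each other.

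Regulators and markers of dividing cells were listed as well. Of 6 regulators of nucleotide synthesis, MYC alone was called, against 3.69% of all genes. It measured 10.09 and 10.99 with MK-8776, against 12.98 and 13.51 with DMSO, and fell by 2.71 (adjusted p = 0.00686, limma). The others ran from -0.53 to 0.61, the highest being MTOR. Of 15 proliferation markers 7 fell, 0 rose and 8 did not pass, against 2.02% of all genes called as falling. Their median change was -0.96, and 12 lay without overlap below DMSO, against 24.2% of all genes. Among the 7 were the mitotic kinase gene PLK1, the cyclin gene CCNA2, TOP2A and CDK1, whose changes were -1.93, -1.78, -1.69 and -1.59 in that order, at limma adjusted p of 0.00477, 0.0168, 0.0150 and 0.0360. CDK1 was not called against a fold of 1.2 (adjusted p = 0.0736, limma). The 8 that did not pass were AURKA, PCNA and MCM2 to MCM7. Of those, PCNA and MCM5 were higher with MK-8776 (0.235 and 0.01), and the rest ran from -0.96 (MCM7) to -0.165 (MCM4). The groups overlapped in PCNA, MCM4 and MCM5. On the first MK-8776 array 13 of these 15 were lower than on the second, as were MYC and 8 of the 10 synthesis genes, against 48.7% of all genes.

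Where a step has a pair of enzymes, the difference between them was taken within each array, which shows whether they changed unequally but says nothing of their relative amounts. IMPDH1 minus IMPDH2 was -4.12 and -4.66 with MK-8776, against -4.21 and -4.28 with DMSO. The groups overlapped, and the shift of -0.15 turned to 0.13 without MK-8776 replicate 2. CTPS1 minus CTPS2 was 2.33 and 1.86 with MK-8776, against 1.57 and 0.77 with DMSO, a shift of 0.93 that ran from 0.53 to 1.33 over the arrays left out. CTPS2 itself measured 7.88 and 8.08 with MK-8776, against 8.69 and 9.24 with DMSO, a change of -0.99 (adjusted p = 0.0724, limma), while CTPS1 was at -0.06. PRPS1 minus PRPS2 was 0.67 and 1.05 with MK-8776, against 0.09 and 0.34 with DMSO, a shift of 0.65 (0.46 to 0.84 over the arrays left out), with PRPS1 at -0.50 (adjusted p = 0.365, limma). The CTPS and PRPS shifts were without overlap, at the smallest p that 2 arrays against 2 allow (two-sided exact permutation p = 0.333 each, 0.500 adjusted over the 3 pairs, and 1 for the IMPDH pair). That design cannot reach 0.05, so whether the enzymes of a pair changed unequally was not settled by this test.

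**Figure D5:**
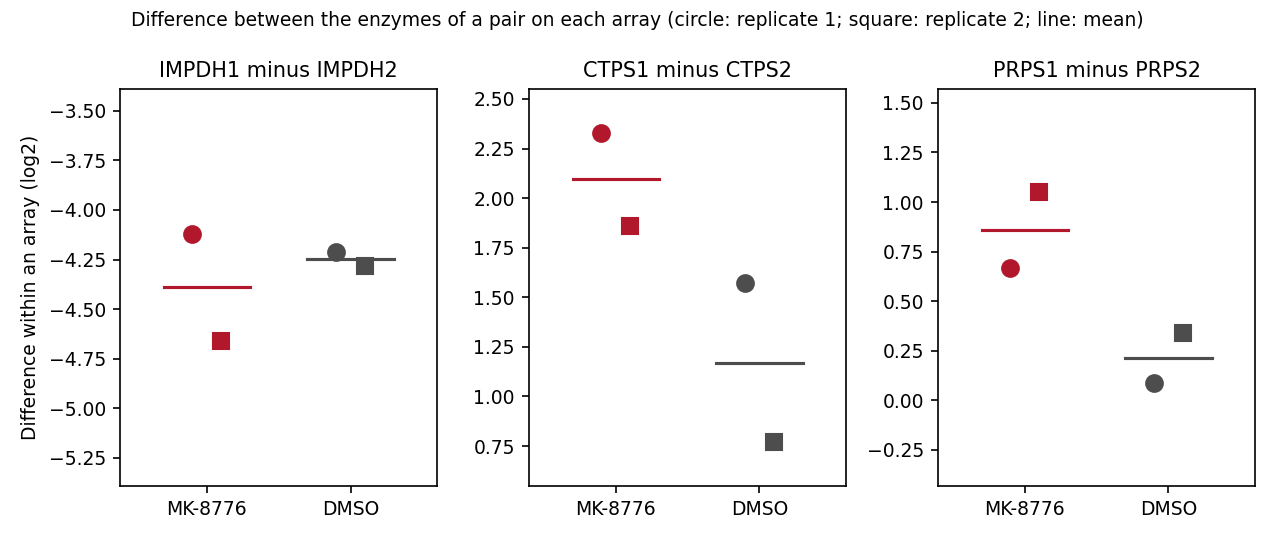
Difference in RMA expression within an array (log2, y axis) between the enzymes of 3 pairs, for the 2 MK-8776 arrays (left, red) and the 2 DMSO arrays (right, grey), with circles for replicate 1, squares for replicate 2 and lines at the means. The groups overlap for IMPDH1 minus IMPDH2 and are apart for CTPS1 minus CTPS2 and PRPS1 minus PRPS2, both higher with MK-8776.

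Outside the lists, among genes with a group mean above the median of all values, those whose values over the 4 arrays lay closest to the mean of the 10, each gene centred on its own mean, were CCND2, COLGALT1 and ARHGAP19-SLIT1. Their distances were 0.02, 0.02 and 0.05 on the log2 scale, against 0.24 to 0.84 for the 10 genes themselves and a median of 0.84 over the 9353 genes compared. CCND2, a cyclin gene, measured 13.99 and 14.38 with MK-8776, against 14.89 and 14.96 with DMSO. With 4 arrays in 2 groups, such closeness describes the values and no more.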

How the data were processed

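The authors' deposited values are log2 expression, 1 for each feature on each array. RMA and genome build hg38 are named, per the submitters' processing notes, and the sources used here give neither the version nor the settings of RMA. Values between 2.16 and 18.54 fit that scale. RMA gives all arrays a like distribution, so changes are relative to other genes. Detection above background was not analysed here, and the number of arrays limits the precision.

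Of 21448 features, 17709 have exactly 1 symbol, all matched by gene number to the RefSeq table (GRCh38.p14), and 17687 genes remained with the feature of highest mean kept for the 20 genes with more than 1. MK-8776 was compared with DMSO with limma 3.58.1 under R 4.3.3, by two-sided tests from lmFit and eBayes without a filter on low values, adjusted after Benjamini-Hochberg over 17687 genes at a threshold of 0.05. The fit has 2 residual degrees of freedom per gene plus 6.30 borrowed from other genes. The fit was also run on data simulated from its own estimated spread, so that run cannot show how well it suits these arrays. Per the submitters' design text the replicates are biological. The labels give nothing on whether cultures were separate, so the p-values reflect spread among these samples.

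The members, lists, design and alternatives were chosen with earlier results of these data known. Named are the 10 members, up to 4 called genes per other list (or the 2 with the largest change where none was called), the paralogs of the pairs, CHEK1 and the 3 genes of closest pattern. GMPS, PFAS, ADSL, MPO, AZU1, CD79A, MS4A1, HLA-DRA, HBB, PF4, MTOR, AURKA, PCNA and MCM2 to MCM7 were named after their values were seen. Listed genes without a single-symbol feature were not analysed here. Alternatives were a test against a fold of 1.2, a replicate block, a variance trend (also with robust estimation), quantile normalization, median centring, the brighter features by median level, every feature, the mean over a gene's features and leaving out each array.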

Additional observations from a re-analysis of the deposited data

How the results depend on the processing

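With all 4 arrays, every one of the 10 genes kept its direction under each alternative, and limma called DHODH under all of them. The members called were 1 with the replicate block (DHODH, with PPAT at adjusted p = 0.0548 and, of other named genes called without it, PRPS2, ADSS1, MTHFD1, PGD, SAMHD1, CD3E, ANPEP and CDK1 at 0.0562 to 0.0968) and 1 with the test against a fold of 1.2. They were 3 with a variance trend, with or without robust estimation, and among features above the median level, where PAICS was added (adjusted p = 0.00374, 0.00414 and 0.0331). The fit of features above the median level called 942 of 9180 genes (10.3%). Over all genes 652 were called, against 1185 with a variance trend, 1162 with robust estimation added, 309 with the replicate block and 288 against a fold of 1.2. Leaving out 1 array gave 0 to 34 called genes (1815 to 3017 at an unadjusted p under 0.05, limma) and 0 called members (4 to 8 at an unadjusted p under 0.05). Of the genes named by rule, none was called with 3 arrays. The direction turned for IMPDH2 without MK-8776 replicate 1 (-0.865 to 0.105 over the arrays left out) and for CTPS1 without MK-8776 replicate 2 or DMSO replicate 1 (0.075 and 0.065, with -0.195 the lowest). The IMPDH1 minus IMPDH2 shift ran from -0.415 to 0.125 over the arrays left out. The fits without an array have fewer arrays, and the causes of these differences were not tested. Same-numbered arrays deviated together only slightly across all genes (correlation 0.139). Among the 10 genes, the gap between replicates 1 and 2 had the same sign in both groups except in UMPS (-0.14 with MK-8776, 0.22 with DMSO). The share of all genes with the same sign in both groups was not counted, so no background is given for this. The labels tie the numbers to no shared culture or day, so the block is not taken as a pairing.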
